A study of Mus musculus with 6 samples.

Results

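Zinc exporters and metallothioneins were examined in the granule cell layer of the dentate gyrus (DG) of control and Bcl11b/Ctip2 mutant mice. The members, 10 genes, were taken by name from the probe annotation, with 1 probe set each, out of 19938 genes tested. They are the transporter genes Slc30a1, Slc30a3, Slc30a4, Slc30a5, Slc30a6, Slc30a7, Slc30a9 and Slc30a10 and the metallothionein genes Mt1 and Mt3. Each of 3 control and 3 mutant RNA samples, from tissue cut out by laser capture microdissection, was measured on its own Affymetrix array. The mutants carried floxed Bcl11b alleles together with tetO-Cre and CaMKIIα-tTA, the tet-off system, in which the CaMKIIα promoter limits Cre to forebrain neurons and doxycycline keeps it silent. All mice, controls included, received doxycycline in the drinking water through embryogenesis and until 2 months of age, and tissue was taken 4 weeks after its removal. The sources used here do not give which of these alleles the controls of this line carried. Whether each sample came from a separate animal is not stated in the sources used here, and p-values refer to the spread between samples, which may be technical. In tissue of this kind, fewer cells of a type and less RNA per cell cannot be told apart.

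Zinc is an ion that cells need bound and that harms them free. Proteins of the Slc30 family (ZnT) carry it out of the cytosol, either across the plasma membrane or into vesicles and organelles, while proteins of the Slc39 family (ZIP) carry it in. Metallothioneins are small, cysteine-rich proteins that bind zinc and copper in the cytosol. Granule cells of the DG are known for the zinc in the synaptic vesicles of their mossy fibers, which ZnT3, the product of Slc30a3, loads. Transcription of Mt1, Mt2 and Slc30a1 is known to follow free zinc through the factor MTF-1, which binds metal response elements in their promoters.

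Mt1 and Mt3, which changed in opposite directions, are neighbors in the genome, so their promoters and that of Mt2, which lies between them, are shown. In the RefSeq annotation of GRCm38.p6 the metallothionein genes stand on mouse chromosome 8 in the order Mt4, Mt3, Mt2, Mt1, with the noncoding gene Gm39227 between Mt3 and Mt2. The windows hold 250 bases before and 50 after the annotated start. Capitals mark matches to the core of the metal response element, searched as TGCACNC and TGCGCNC on both strands. The windows are chr8:94178839-94179138 for Mt1, chr8:94172368-94172667 for Mt2 and chr8:94152357-94152656 for Mt3, all on the plus strand.
Mt1: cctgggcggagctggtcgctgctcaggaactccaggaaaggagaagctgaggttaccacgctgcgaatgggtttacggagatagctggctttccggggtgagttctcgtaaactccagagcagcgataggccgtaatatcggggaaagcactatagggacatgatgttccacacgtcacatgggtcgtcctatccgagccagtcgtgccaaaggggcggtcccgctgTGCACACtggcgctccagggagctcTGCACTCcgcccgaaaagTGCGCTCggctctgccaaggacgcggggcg
Mt2: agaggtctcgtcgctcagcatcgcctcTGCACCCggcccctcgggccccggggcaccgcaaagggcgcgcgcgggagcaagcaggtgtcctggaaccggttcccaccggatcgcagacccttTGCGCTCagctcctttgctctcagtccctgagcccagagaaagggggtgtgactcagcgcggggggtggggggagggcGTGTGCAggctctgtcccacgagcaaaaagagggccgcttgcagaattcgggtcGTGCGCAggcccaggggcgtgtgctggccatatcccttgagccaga
Mt3: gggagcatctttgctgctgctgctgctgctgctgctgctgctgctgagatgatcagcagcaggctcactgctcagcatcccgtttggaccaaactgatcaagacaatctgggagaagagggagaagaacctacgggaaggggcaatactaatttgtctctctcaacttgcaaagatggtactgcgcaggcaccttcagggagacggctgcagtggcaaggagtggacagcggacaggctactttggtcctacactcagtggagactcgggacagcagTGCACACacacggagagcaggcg
The Mt1 window held 3 matches, the Mt2 window 4 and the Mt3 window 1. Of 32851 promoter windows of this length in the table, 25.7% held at least 1 match, 1.97% at least 3 and 0.517% at least 4. A match was also found for Slc30a1, Slc30a3 (in 1 of its 2 windows), Slc30a4, Slc30a5 and Slc30a10, so that 7 of 10 members had one, among them all 3 that changed and 4 of the 7 that did not pass the test. In the Slc30a10 window 2 of 3 matches overlapped each other. The share of 25.7% counts single windows and was not matched for GC content. GC content lay between 53.3% and 81.7% in the windows of members. The letters TGGGC, a putative Bcl11b/Ctip2 site, were found on either strand for 6 of 10 members, beside 56.9% of all windows. No match of one motif overlapped a match of the other. These matches are letters in a window and were not tested for binding.

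Levels are log2 values, so a difference of 1 is a fold of 2. Differences are mutant minus control, with the standard error (SE) of the difference. A gene is said to have changed where its limma p, adjusted by Benjamini-Hochberg for all genes tested, was under 0.05. Bcl11b itself lay between 10.30 and 10.56 in controls and between 8.68 and 9.03 in mutants, a change of -1.58 (SE 0.099, limma adjusted p = 2.56e-05), and the sources used here do not give whether its probes lie in the deleted sequence. Array medians lay between 6.29 and 6.36, and every member lay above them in all 6 arrays, with single values between 7.49 and 11.73. Prox1, a defining marker of granule cells, lay between 11.45 and 11.81 in all arrays. Of 12 granule cell markers 7 were lower and 2 higher, beside 5.93% and 9.23% of all genes. Their median change was -0.56, and C1ql2 with -3.29 had the largest change among them.

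Mt1 and Slc30a3 rose and Mt3 fell in the granule cell layer of mutants, and the other 7 members did not pass the test. The median change of the members was 0.06 on the log2 scale, beside -0.003 over all genes. Of all genes, 15.2% passed the test in either direction, 9.23% higher and 5.93% lower. The higher genes were 60.9% of these calls, 51.3% after renewed quantile normalization and 44.2% after centring each array on its median. Among genes at or above the median level, to which all 10 members belong, 25.0% passed the test in either direction. So 3 of 10 members is close to the share of genes of like level. Groups did not overlap for 4 members, beside 31.6% of all genes. All mutant arrays lay above all controls for 2 members, Slc30a3 and Mt1, beside 17.0% of all genes, and below them for 2, Slc30a10 and Mt3, beside 14.6%. No member changed by a fold of 1.5 or more, while 3.67% of all genes did, and 2 members, Mt1 and Mt3, changed by a fold of at least 1.25, beside 10.7% of all genes.

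**Figure D1:**
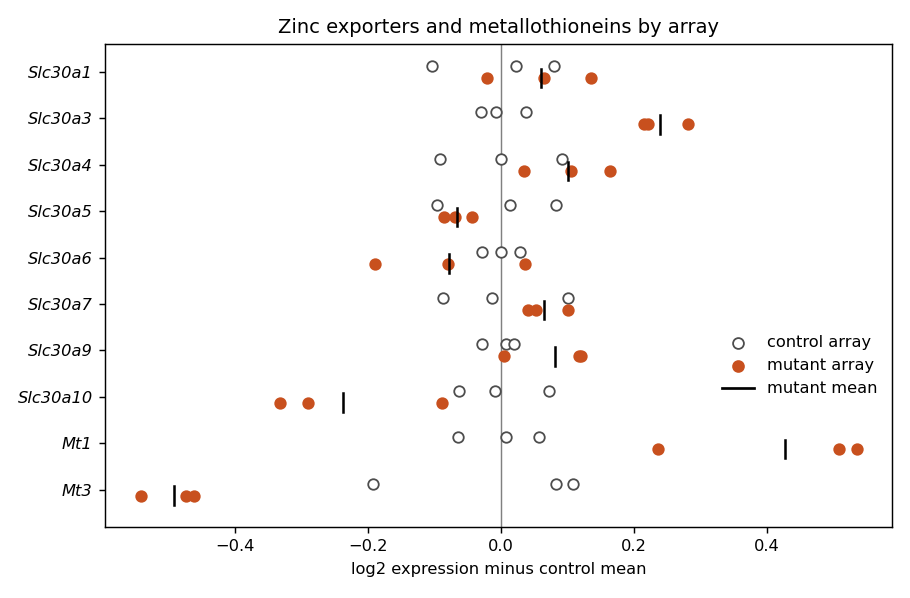
Log2 expression of the 10 members in each array, minus the mean of the control arrays (horizontal axis). Controls are drawn as open and mutants as filled circles, 3 of each, and a black line stands at the mean of the mutants. All mutant arrays lie to the right of the controls for Slc30a3 and Mt1 and to the left for Slc30a10 and Mt3, and the groups overlap for the other 6.

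Slc30a3 encodes ZnT3, the transporter that fills synaptic vesicles with zinc. Its log2 level was 11.49, 11.44 and 11.42 in controls 1 to 3 and 11.67, 11.67 and 11.73 in mutants 1 to 3. Every mutant array lay above every control array, with a narrow spread in both groups (SD 0.035 and 0.037, n = 3 each). The log2 change was 0.24, a fold of 1.18 (SE 0.052, 95% interval 0.12 to 0.36, limma adjusted p = 0.0154). The call was lost without control 2 (adjusted p = 0.0592) and without mutant 3 (adjusted p = 0.0725), with log2 changes of 0.24 and 0.22.

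Genes that act with Slc30a3, in its sorting or in the vesicle membrane, were listed, 9 in all. These are the subunits of the AP-3 adaptor, which sorts ZnT3 into synaptic vesicles, the vesicular glutamate transporter Slc17a7 (Vglut1) and the chloride transporter Clcn3. Of the 9 genes, 1 rose, 1 fell and the test was not passed by 7 (median change 0.04). Of all genes 15.2% passed, and 25.0% of those at or above the median level. Ap3m2, the neuronal mu subunit, rose from 10.04, 10.02 and 9.96 in controls to 10.32, 10.24 and 10.34 in mutants, a log2 change of 0.29 (SE 0.055, limma adjusted p = 0.00776). Ap3m1, the ubiquitous mu subunit, counts among the 7 by its brighter probe set, with a change of 0.11 (limma adjusted p = 0.28). Its other probe set lay at 8.83, 8.52 and 8.74 in controls and 9.15, 9.03 and 9.04 in mutants, a change of 0.37 (SE 0.083, limma adjusted p = 0.018 with every probe set fitted on its own), so the pair disagree. Ap3b1, the ubiquitous beta subunit, had a log2 change of -0.19 (SE 0.052, limma adjusted p = 0.0423), which passed the test in 1 of the 6 fits that left out an array and not with the replicate number as a block (adjusted p = 0.0751). Ap3b2, the other beta subunit, did not pass, with a log2 change of 0.10 (limma adjusted p = 0.306). Ap3d1, the delta subunit, whose loss in mocha mice is known to deplete vesicular zinc, had a log2 change of 0.17 (limma adjusted p = 0.115). For Slc17a7 the log2 change was -0.04, with a 95% interval of -0.15 to 0.07.

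Transporters of the plasma membrane did not pass the test. Slc30a1 encodes ZnT1, the main exporter at the cell surface. Its log2 level was 9.32, 9.26 and 9.14 in controls and 9.22, 9.37 and 9.30 in mutants. The groups overlapped, and the log2 change of 0.06 had a 95% interval of -0.09 to 0.21. Slc30a10 encodes a surface transporter that is known chiefly for the export of manganese. It lay at 7.82, 7.77 and 7.90 in controls and at 7.49, 7.74 and 7.54 in mutants. Every mutant array was below every control array, mutant 2 by a small margin, and the log2 change was -0.24 (SE 0.075, 95% interval -0.41 to -0.07, limma adjusted p = 0.0686). Without mutant 2 it passed the test, with a log2 change of -0.31 (adjusted p = 0.0277), and it also did with array weights (adjusted p = 0.0385), renewed quantile normalization (adjusted p = 0.0355) and centring on array medians (adjusted p = 0.0313).

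Transporters of organelles did not pass the test either. Slc30a4 encodes ZnT4 of endosomes and lysosomes, and lay at 9.57, 9.47 and 9.38 in controls and 9.58, 9.51 and 9.64 in mutants. ZnT5 and ZnT6, which work as a pair in the early secretory pathway, are the products of Slc30a5 and Slc30a6. Slc30a5 lay at 9.53, 9.60 and 9.42 in controls and at 9.43, 9.44 and 9.47 in mutants. Slc30a6 lay at 8.50, 8.55 and 8.53 in controls and at 8.33, 8.44 and 8.56 in mutants, so mutant 3 was the highest and mutant 1 the lowest of the 6 arrays. ZnT7 supplies the Golgi apparatus, and its gene Slc30a7 lay at 8.59, 8.48 and 8.40 in controls and 8.54, 8.59 and 8.53 in mutants. Slc30a9, linked to zinc in mitochondria, lay at 10.65, 10.66 and 10.61 in controls and 10.65, 10.76 and 10.76 in mutants. The groups overlapped for each of these 5 genes. Their log2 changes were 0.10 for Slc30a4, -0.07 for Slc30a5, -0.08 for Slc30a6, 0.06 for Slc30a7 and 0.08 for Slc30a9. Over these 5 genes and Slc30a1, the 95% intervals lay between -0.23 and 0.25, so the data leave room for changes up to that size.

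Mt1 encodes a metallothionein found in most tissues and, in the brain, abundant in astrocytes. Its log2 level was 10.97, 10.85 and 10.92 in controls and 11.15, 11.45 and 11.42 in mutants. All mutant arrays were higher than all control arrays, mutant 1 the least so. The log2 change was 0.43, a fold of 1.34 (SE 0.084, 95% interval 0.24 to 0.62, limma adjusted p = 0.0097). With the methods' unpaired two-tailed test on each gene alone, the adjusted p was 0.112.

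Mt2, the neighbor of Mt1 and commonly expressed together with it, is not a member but belongs to the list of related genes. It lay at 11.17, 11.59 and 11.53 in controls and at 12.25, 12.52 and 12.51 in mutants. All mutants were above all controls, and within each group array 1 was the lowest. The log2 change was 1.0 (SE 0.12, 95% interval 0.73 to 1.27, limma adjusted p = 7.36e-04), or 0.0542 as the adjusted p of the methods' test. Mt1 and Mt2 are alike in sequence, and whether RNA of one also binds probes of the other was not tested. The other 4 genes of that list, Slc30a2, Slc30a8, Tmem163 and Mt4, did not pass the test.

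Mt3 encodes the metallothionein that is particular to the nervous system, known from neurons that hold vesicular zinc as well as from astrocytes. Its log2 level was 11.69, 11.41 and 11.71 in controls and 11.13, 11.06 and 11.14 in mutants. All mutant arrays were lower than all control arrays, of which control 2 was the lowest. The log2 change was -0.49, a control level 1.41 times that of mutants (SE 0.083, 95% interval -0.68 to -0.30, limma adjusted p = 0.00446). With the methods' test the adjusted p was 0.0815. With limma, Mt1, Mt2 and Mt3 passed in all 6 fits that left out an array.

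**Figure D2:**
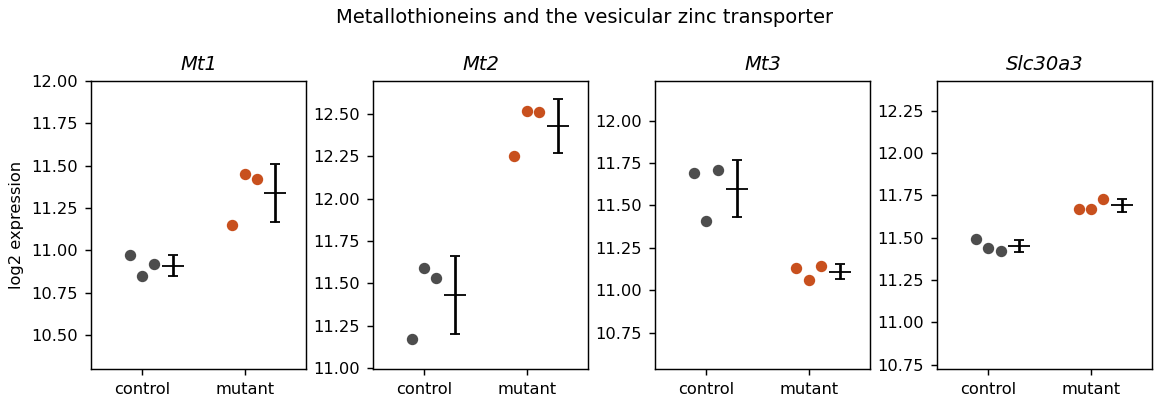
Log2 expression (vertical axis, the same span in each panel) of Mt1, Mt2, Mt3 and Slc30a3 in each array. Each dot is 1 array, in the order 1 to 3 from left to right within its group, and the line with its bar stands for the group mean and 1 SD (n = 3). Mt1 and Mt2 are higher and Mt3 is lower in all mutant arrays than in all control arrays.

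Within each array the metallothioneins changed unequally. The log2 difference of Mt1 and Mt3, set to a mean of 0 in controls, was -0.03, 0.13 and -0.10 in controls and 0.71, 1.08 and 0.97 in mutants, a mean of 0.92. For Mt2 and Mt1 it was -0.32, 0.22 and 0.10 in controls and 0.58, 0.56 and 0.58 in mutants, a mean of 0.57. The groups did not overlap in either case. An exact permutation test of 3 arrays against 3 gave p = 0.1 for each of the 3 pairs of metallothioneins (two-sided), the smallest it can give, so it cannot pass the threshold.

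Since astrocytes also express metallothioneins, markers of other cells are given beside these values. Their counts are read against all genes, of which 15.2% passed the test, 9.23% higher and 5.93% lower. Among genes at or above the median level 25.0% passed. Of 13 astrocyte markers measured, 2 rose, 0 fell and 11 failed the test, with 3 of 13 at an unadjusted p under 0.05, beside 27.2% of all genes, and a median change of 0.09. Gfap, an intermediate filament of astrocytes, had a log2 change of 0.54 (limma adjusted p = 0.013), the glutamate transporter Slc1a2 of 0.32 (limma adjusted p = 0.00845) and Slc1a3, a further glutamate transporter, of 0.26 (limma adjusted p = 0.15). Without control 2 Gfap did not pass (adjusted p = 0.0605), and without control 1 the change of Slc1a3 was 0.13. The mean log2 level of the 13 markers lay between 8.84 and 9.11 in controls and between 9.04 and 9.22 in mutants, so the groups overlapped. It was highest in mutant 2 and lowest in control 1. In control 3 it was 9.11, above mutants 1 and 3 with 9.04 and 9.06. Of 9 endothelial and mural markers, 2 were higher and 0 lower, Flt1 with a log2 change of 0.44 and Pdgfrb with 0.40. The median change of the 9 was 0.05. All mutant arrays lay above all controls for 3 of them, beside 17.0% of all genes. They lay below for 1, beside 14.6%, which was Kdr with -0.19 (limma adjusted p = 0.0861, every value under the median of its array). The mean level lay between 6.44 and 6.58 in controls and 6.53 and 6.78 in mutants, with overlap. Flt1 did not pass without control 3, mutant 2 or mutant 3 (adjusted p = 0.0692, 0.112 and 0.0999), nor with renewed quantile normalization (0.0688) or centring (0.0528). Of 9 microglia markers, 1 was lower, Tmem119 with -0.32, and of 9 oligodendrocyte markers 1 was lower, Ermn with -1.71. The median change of the microglia markers was -0.26, with single changes from -0.35 to -0.06. Their mean level lay between 6.94 and 7.34 in controls and 6.89 and 7.04 in mutants, with overlap. That of the oligodendrocyte markers lay between 8.06 and 8.18 in controls and 7.74 and 7.97 in mutants. This gap is not kept without Ermn. The median change of the list was -0.12, and Mobp with 0.09 and Sox10 with 0.05 went the other way. Of 6 markers of immature neurons 3 were higher, Dcx with 1.07, Sox11 with 0.46 and Neurod1 with 0.34, and the list median was 0.20. The mean level of the 6 lay between 7.78 and 8.05 in controls and 8.12 and 8.32 in mutants, a gap not kept without Dcx. Of 9 interneuron markers 1 was higher, Cck with 1.56, and 2 were lower, Npy with -0.58 and Gad1 with -0.27, and the mean levels overlapped (8.44 to 8.72 and 8.55 to 8.70). Npy did not pass without mutant 1 (adjusted p = 0.0528), nor Gad1 without control 3, mutant 1 or mutant 3 (0.0544, 0.0719 and 0.0826). Of 8 CA pyramidal and mossy cell markers, Bok was higher with 1.90 and Fibcd1 lower with -0.94. The mean levels also overlapped (6.22 to 6.33 and 6.30 to 6.38), but several of the other markers lay under the median of every array. Of 5 choroid plexus markers 1 was lower, Kl with -0.58, and the list median was -0.02. The mean level lay between 5.83 and 5.94 in controls and 5.72 and 5.78 in mutants, a gap not kept without Kl. Markers of this list other than Kl lay under the median of every array, so their expression above background is not established. The part of these cells in the changes of Mt1, Mt2 and Mt3 was not tested.

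Among the importers of the Slc39 family, the 3 genes that passed the test were lower. Of 14 genes, 3 were lower, 0 higher and 11 did not pass, with a median change of -0.01. Of all genes, 5.93% were lower and 9.23% higher, and 25.0% of those at or above the median level passed in either direction. An unadjusted p under 0.05 was found for 6 of the 14, beside 27.2% of all genes. These include 3 that failed the adjusted test, Slc39a13 with a change of 0.17, Slc39a2 with -0.14 and Slc39a8 with -0.26, the last pair with every value under the median of its array. Slc39a6, which encodes ZIP6 of the plasma membrane, lay at 10.47, 10.40 and 10.24 in controls and 10.03, 9.92 and 10.11 in mutants. Its log2 change was -0.35 (SE 0.076, limma adjusted p = 0.016). For Slc39a11, a ZIP of the Golgi apparatus and nucleus, it was -0.26 (SE 0.052, limma adjusted p = 0.01), with 8.66, 8.73 and 8.64 in controls and 8.42, 8.42 and 8.40 in mutants. Slc39a14 encodes ZIP14, which carries zinc, iron and manganese, and had a log2 change of -0.26 (SE 0.066, limma adjusted p = 0.0305). The mutant and control arrays did not overlap for any of these 3 genes. Among the 14, all mutant arrays lay below all controls for 5 and above them for 1. Of all genes, 14.6% lay below and 17.0% above in this way. In the fits that left out an array, Slc39a11 passed in 6 of 6. Slc39a6 did not pass without control 2, mutant 1 or mutant 2 (adjusted p = 0.0666, 0.0583 and 0.0681), nor Slc39a14 without control 2, mutant 2 or mutant 3 (0.0961, 0.116 and 0.109).

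**Figure D3:**
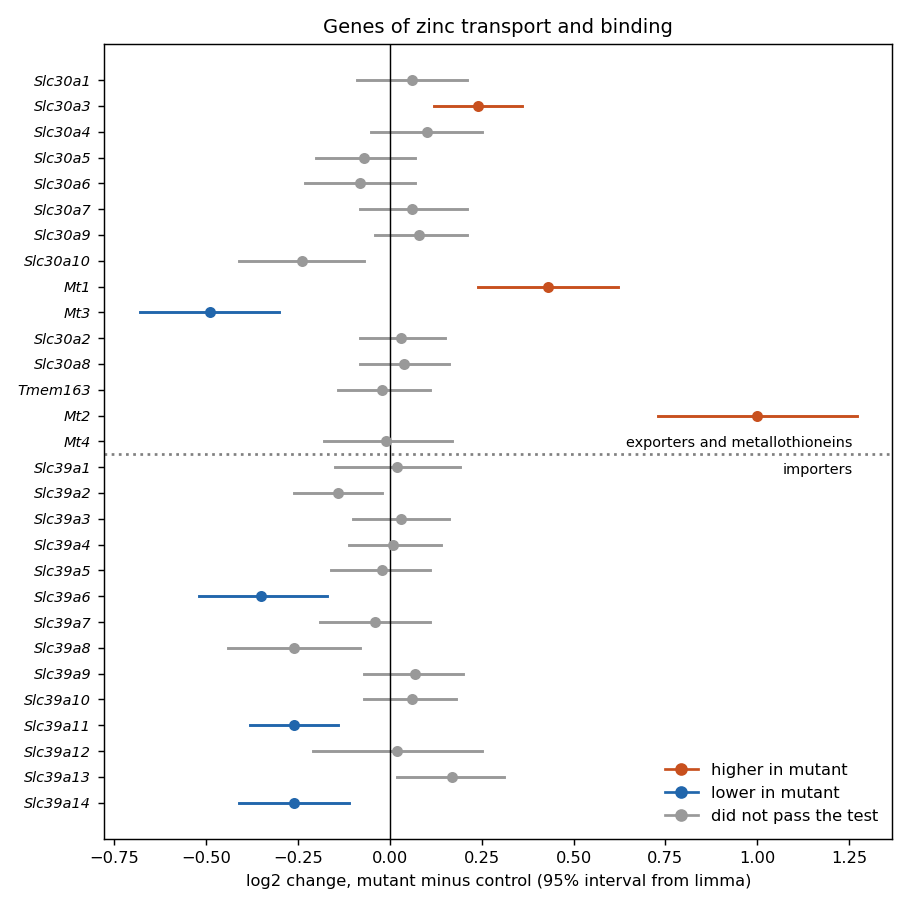
Log2 change, mutant minus control (horizontal axis), of the 15 exporter and metallothionein genes measured and of the 14 importer genes, with 95% intervals from limma. Mt2 has the largest change, 1.0, and the 3 importers that passed the test lie between -0.35 and -0.26.

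Genes that sense zinc did not pass the test. Mtf1 encodes MTF-1, and lay at 8.91, 8.88 and 8.72 in controls and 9.07, 9.12 and 8.97 in mutants. The groups did not overlap, and the log2 change was 0.22 (SE 0.069, limma adjusted p = 0.0674). It passed without control 1 (adjusted p = 0.0334) and with the replicate number as a block (adjusted p = 0.0408). Gpr39, a receptor for zinc outside the cell, had a log2 change of 0.00 with a 95% interval of -0.18 to 0.19. Its values, between 5.93 and 6.19, were lower than the median of every array, so expression above background is not established.

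**Figure D4:**
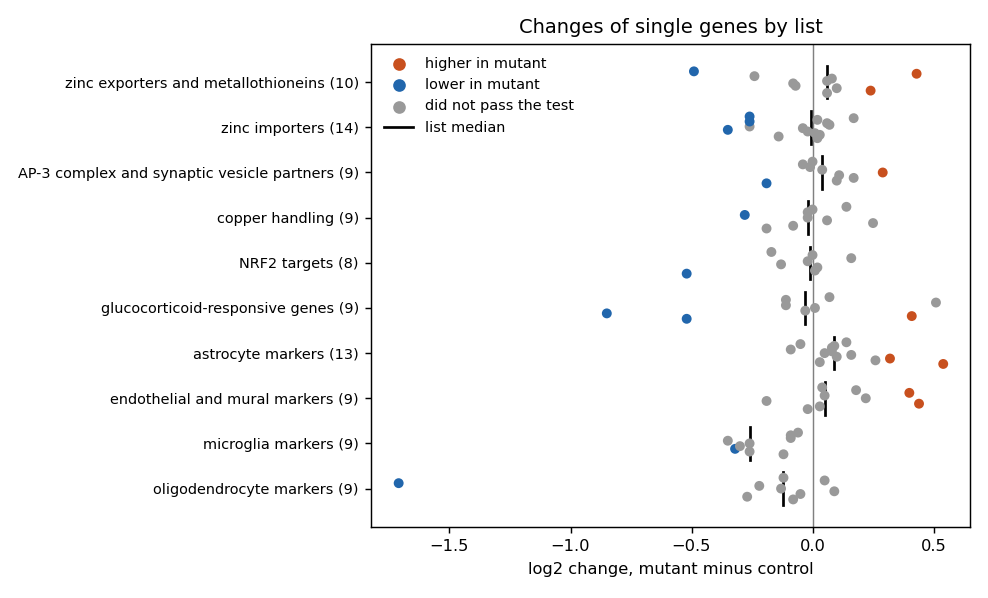
Log2 change, mutant minus control (horizontal axis), of each gene of 10 lists, with the number of genes measured in brackets. Colors give the result of the limma test and black lines the list medians. The members, at the top, hold 2 genes that are higher and 1 that is lower, and their median is 0.06.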

How the data were processed

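Log2 expression values of 35556 probe sets were deposited, processed by the authors with Affymetrix Expression Console and RMA, per the labels. RMA subtracts background, gives the arrays 1 common distribution and summarizes the probes of each set. Tool versions and genome build: not given in the sources used here. This removes a change common to all genes, and compresses changes near background. The platform annotation paired 21789 probe sets with 1 gene and 1621 with several. Of those with 1 gene, 21698 matched the RefSeq table by Entrez number. For each gene the probe set of the highest mean was kept, without a filter on level. Arrays were grouped by their titles.

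Mutant minus control was tested with limma 3.58.1 under R 4.3.3 (lmFit, eBayes, without covariates, Benjamini-Hochberg adjustment over 19938 genes). Tested on simulated data (19938 genes, spread as measured), it called 44% of 50 genes altered 1.25-fold, 82% of 50 altered 1.5-fold and 5 of 19738 unaltered genes. Far fewer genes were altered there than were called in these arrays (15.2%). The adjustment was therefore stricter there, and these shares need not hold for these arrays. The number of arrays limits the precision. The methods' test is the unpaired two-tailed test on each gene. Members and lists were chosen with earlier results of these data known. Named were all members, of other lists the genes that passed the test (else the 2 of smallest p), and up to 3 markers per cell type. Slc17a7, Ap3d1, Ap3m1, Ap3b2, Prox1, Kdr, Mobp and Sox10 were added after their values were seen. So were the uncalled Slc30a2, Slc30a8, Tmem163, Mt4, Slc39a2, Slc39a8 and Slc39a13. Same-numbered arrays deviated together with correlations of 0.16, -0.033 and 0.12, so they were not treated as pairs.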

Additional observations from a re-analysis of the deposited data

How the results depend on the processing

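Of the 3 members that passed the test, Mt1 and Mt3 kept direction and call in 17 of 18 alternatives and lost the call with the methods' test after adjustment, which left 1 member, Slc30a3, and 3 of 56 other genes, Slc39a11, Ap3m2 and Tsc22d3 (11 with limma). These 56 are the other exporters and metallothioneins, the importers, zinc sensors, vesicle partners, copper genes, NRF2 targets and glucocorticoid-responsive genes. Slc30a3 passed in 15 of 18, and failed at a threshold of 0.01 and without control 2 or mutant 3. Leaving out 1 array at a time gave 2 to 4 members, 6 to 16 other genes and 1886 to 4487 changed genes of all. The other genes numbered 6 without control 2, 7 without mutant 1 or mutant 2, and 16 without control 1. All changed genes, 3023, became 1141 with the methods' test after adjustment, 4545 with it unadjusted, 5527 with array weights and 1554 at a threshold of 0.01, where the other genes became 19 (array weights) and 5 (threshold of 0.01). The direction of calls was 60.9% higher, but 51.3% with renewed quantile normalization and 44.2% with centring. The replicate number as a block gave 3176 changed genes and 3 members, with 12 of the other genes. No source says what the number marks, and the best correlation was with the same number for 4 of 6 arrays. Block calls were gained for Mtf1 and lost for Ap3b1 among the genes named. Gpr39 changed sign, to -0.05 with array weights, -0.0042 with renewed quantile normalization and -0.05 with centring, and ranged from -0.04 to 0.08 over fits without 1 array. Prox1 ranged from -0.15 to 0.03 over these. The causes were not tested. Signal over background was not measured, which limits the values under the array medians.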

Other observations

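Copper, oxidative stress and glucocorticoid genes were listed beside those of zinc, and the shares called are read against 15.2% of all genes. Of 9 genes of copper handling, which metallothioneins also bind, 1 fell and the test was not passed by 8 (median change -0.02), a share under that of all genes. Ccs, the chaperone that loads copper into superoxide dismutase, lay at 7.61, 7.74 and 7.70 in controls and 7.43, 7.29 and 7.49 in mutants. Its log2 change was -0.28 (SE 0.067, limma adjusted p = 0.0231), and it passed in 2 of 6 fits that left out an array, those without control 1 (adjusted p = 0.0101) or mutant 3 (0.0349), with 0.0562 to 0.0939 in the others. Of 8 targets of NRF2, the factor of the oxidative stress response, 1 was lower and 7 did not pass, with a median change of -0.01, also under that share. Hmox1, which breaks down heme and like Mt1 is known to be induced by stress, lay at 7.36, 7.02 and 6.78 in controls and 6.45, 6.60 and 6.52 in mutants, a log2 change of -0.52 (SE 0.13, limma adjusted p = 0.0242) that passed without control 1 (adjusted p = 0.00981) or control 3 (0.00383), with 0.0614 to 0.0982 in the others.

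Glucocorticoids are also known to induce Mt1 and Mt2. Of 9 glucocorticoid-responsive genes measured, 1 rose, 2 fell and the test was not passed by 6 (median change -0.03). The share called is above that of all genes (15.2%, or 25.0% at or above the median level), but rests on few genes. Tsc22d3, which encodes the glucocorticoid-induced leucine zipper, lay at 7.07, 6.96 and 6.92 in controls and 7.35, 7.41 and 7.42 in mutants, a log2 change of 0.41 (SE 0.059, limma adjusted p = 0.00187). The kinase Sgk1 lay at 9.79, 9.33 and 9.29 in controls and 8.66, 8.62 and 8.59 in mutants, a log2 change of -0.85 (SE 0.12, limma adjusted p = 0.00172). Fkbp5, a chaperone that restrains the glucocorticoid receptor, had a log2 change of -0.52 (SE 0.10, limma adjusted p = 0.00996). For each of these 3 genes the groups did not overlap, as for 31.6% of all genes. Each passed the test in all 6 fits that left out an array. With the methods' test after adjustment Tsc22d3 kept the call (0.0359), while Sgk1 (0.072) and Fkbp5 (0.129) lost it.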
